A study of Mus musculus with 4 samples.

Results

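The 8 genes described here are the 4 receptor tyrosine kinases for fibroblast growth factors (FGFs), *Fgfr1*, *Fgfr2*, *Fgfr3* and *Fgfr4*, and 4 FGF ligands known from the skeleton, *Fgf1*, *Fgf2*, *Fgf7* and *Fgf18*. They were taken by symbol from the 53703 features of 4 droplet-based scRNA-seq libraries, and all 8 were found. The cells were stromal cells of the femoral and tibial metaphysis, depleted of lineage-positive, CD45+ and CD117+ cells, from mice aged 12 weeks. The 2 mutant libraries (Lats2iECKO) came from mice with loxP-flanked *Lats2* and *Cdh5(PAC)-CreERT2*, a tamoxifen-inducible Cre driven by an endothelial promoter. The 2 control libraries were labelled untreated. The study's methods describe controls as Cre-negative littermates given the same tamoxifen some weeks after birth. Nothing in the labels ties a library to single animals, so the p-values measure only the spread between libraries.

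FGFs bind receptor tyrosine kinases together with heparan sulfate, and the receptors pass the signal on through the adaptor FRS2 to the MAP kinase cascade and through phospholipase C gamma. The cascade raises its own inhibitors of the Sprouty, Spred and dual-specificity phosphatase families as well as ETS factors of the *Etv4* and *Etv5* group, so transcripts of these genes are common readouts of the pathway. In the growth plate FGFR3 is known as a brake on chondrocyte proliferation and FGF18 as one of its ligands, FGFR1 is typical of hypertrophic chondrocytes, and FGFR1 and FGFR2 act in cells of the osteoblast lineage. FGF7 is a mesenchymal ligand for a splice form of FGFR2 found in epithelia, and FGF1 and FGF2 lack a classical secretion signal.

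Cells were gated by scores of marker genes, of which none was a member. A score was the mean of the markers' log-scaled levels, each divided by its mean in the top 2% of barcodes and capped there. The classes were endothelial cells (ECs), diaphyseal and metaphyseal bone marrow mesenchymal stromal cells (dpMSCs, mpMSCs), osteoblasts (OBs), osteocytes, contractile smooth muscle cells (SMCs), pericytes, fibroblasts and 7 zones of chondrocytes (CHOs), namely superficial, articular, resting, columnar, cycling, pre-hypertrophic (PHCHOs) and hypertrophic (HCHOs). Barcodes with at least 1000 UMIs and 800 genes numbered 5749 and 6703 in the mutant libraries and 7606 and 7649 in the controls. Of these, 5119, 5887, 6813 and 6780 passed the limits on mitochondrial transcripts, hemoglobin transcripts and complexity (log of genes divided by log of UMIs). Their median depth lay between 7574 and 8181 UMIs. Between 6 and 16 barcodes were shared by any pair of libraries. The level of a gene in a class is its summed count in a library scaled to 1000000 counts of that class (CPM), and classes were compared as sums, so that n = 2 libraries per genotype throughout. *Lats2* itself, counted over the whole gene, stood at 93.4 and 97.6 CPM in the ECs of mutants and at 134 and 125 CPM in those of controls.

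Gate sizes differed between genotypes, and some gates held different cells. HCHOs numbered 626 and 662 in the mutant libraries and 27 and 24 in the controls, and pericytes 231 and 263 against 70 and 67, while OBs numbered 115 and 130 against 638 and 668. The own markers of a gate were not always equal. The 4 articular markers, all detected, summed to 3615 and 2747 CPM in the articular CHOs of mutants and to 42690 and 10190 CPM in those of controls. The 5 pericyte markers, all detected, summed to 7145 and 7800 CPM against 20730 and 20170 CPM. Summed transcripts of the 5 erythroid markers stood at 419 and 466 CPM in mutant ECs and at 162 and 181 CPM in control ECs, and both mutant libraries exceeded both controls in every other class compared except cycling CHOs. Lowering each sum by the free RNA seen in empty barcodes kept 18 of the 21 differences called below, the others being *Fgfr1* and *Fgf18* in resting CHOs and *Fgf2* in columnar CHOs. Cells were also clustered without the gates, and each difference was measured again within single clusters that held at least 10 gated cells from every library.

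The row of *Fgfr2* (ENSMUSG00000030849) carries a limit of its own. In the GENCODE M39 annotation of GRCm39 this gene runs from 129763471 to 132725079 on the minus strand of chromosome 7, a span of 2.96 Mb that comes from 1 of its 48 transcripts, whose median span is 97.9 kb. It overlaps 99 other genes, 47 of them on the same strand. The authors shared reads of several genes out by expectation maximization, and 41.3% of the entries of *Fgfr2* were not whole numbers. In 98.2% of those barcodes a gene on the same strand within the span also had such a share, most often *Ate1* (29.5%) and *Chst15* (24%). Leukocytes left in the libraries, a cell type not known for this receptor, showed 189 to 227 CPM of *Fgfr2*, against 8.27 to 53.2 CPM of *Fgfr1*. Levels of *Fgfr2* below about that of leukocytes are therefore uncertain. The annotation used by the authors was an earlier GENCODE release, whose gene limits were not used here. Taking only the whole part of each entry kept all 21 differences called below. It removed only 4.68% of the UMIs of *Fgfr2*, though 47.6% lay in entries that were not whole. Leukocytes still held 176 to 210 CPM of it. This alternative therefore does not test whether whole reads were given to the wrong gene. Of the entries of *Fgf2*, 31.6% were not whole, shared with *Gm43439*, and *Nudt6* lies on the opposite strand. *Fgfr1* (chromosome 8, 26003670 to 26066824, plus strand), *Fgfr3* (chromosome 5, 33879018 to 33894412, plus strand), *Fgf1* (chromosome 18, 38971717 to 39077186, minus strand) and *Fgf18* (chromosome 11, 33067014 to 33097828, minus strand) had at most 0.494% of such entries.

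In control libraries *Fgfr1* was highest in HCHOs, at 1036.5 ± 27.8 CPM (mean ± SD, n = 2, as for all levels here). Osteocytes followed at 884 ± 47.1 CPM, from 17 and 16 cells, and articular CHOs at 517 ± 9.15 CPM. Resting CHOs, OBs, mpMSCs and PHCHOs lay at 369 to 338 CPM, and their libraries overlapped from 1 to the next. Fibroblasts, at 199 ± 21.1 CPM, lay below these, and columnar CHOs, dpMSCs, superficial CHOs and contractile SMCs at 176 to 162 CPM. ECs were lowest, at 47.1 ± 1.59 CPM, with the transcript in 22.3% of their cells. This lay above control leukocytes, at 19.0 and 8.27 CPM with only the whole part of each entry. Among leukocytes of mutants, 1 library held 16.6 CPM and the other 53.2 CPM.

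*Fgfr2* was highest in BMSCs, at 1279 ± 44.7 CPM in dpMSCs and 1089 ± 7.19 CPM in mpMSCs. ECs, at 620 ± 9.40 CPM, and articular CHOs, at 541 ± 4.69 CPM, came next, and the order of these 4 classes exceeded the spread between control libraries. From contractile SMCs (271 CPM) through fibroblasts, columnar CHOs and cycling CHOs to PHCHOs (207 CPM), neighbouring classes overlapped, and the lowest of them reached the level of leukocytes.

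*Fgfr3* was highest in growth-plate chondrocytes. It stood at 259 ± 7.18 CPM in columnar CHOs, at 197 ± 8.61 CPM in PHCHOs and at 187 ± 2.02 CPM in resting CHOs. Cycling CHOs overlapped with resting CHOs at 180 ± 17.1 CPM. Superficial CHOs (81.2 CPM), mpMSCs (67.1 CPM), articular CHOs (63.1 CPM) and HCHOs (46.7 CPM) followed. Pericytes, contractile SMCs and fibroblasts held 6, 12 and 7 counts in both control libraries together, and osteocytes held none, where a count of 0 allows up to 3 counts. *Fgfr4*, the fourth receptor, reached at most 3.35 CPM in any class of either genotype and passed the filter on low counts only in columnar CHOs, where it was not called (log2 fold change −0.23, standard error 0.40, edgeR adjusted p = 0.72).

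**Figure D1:**
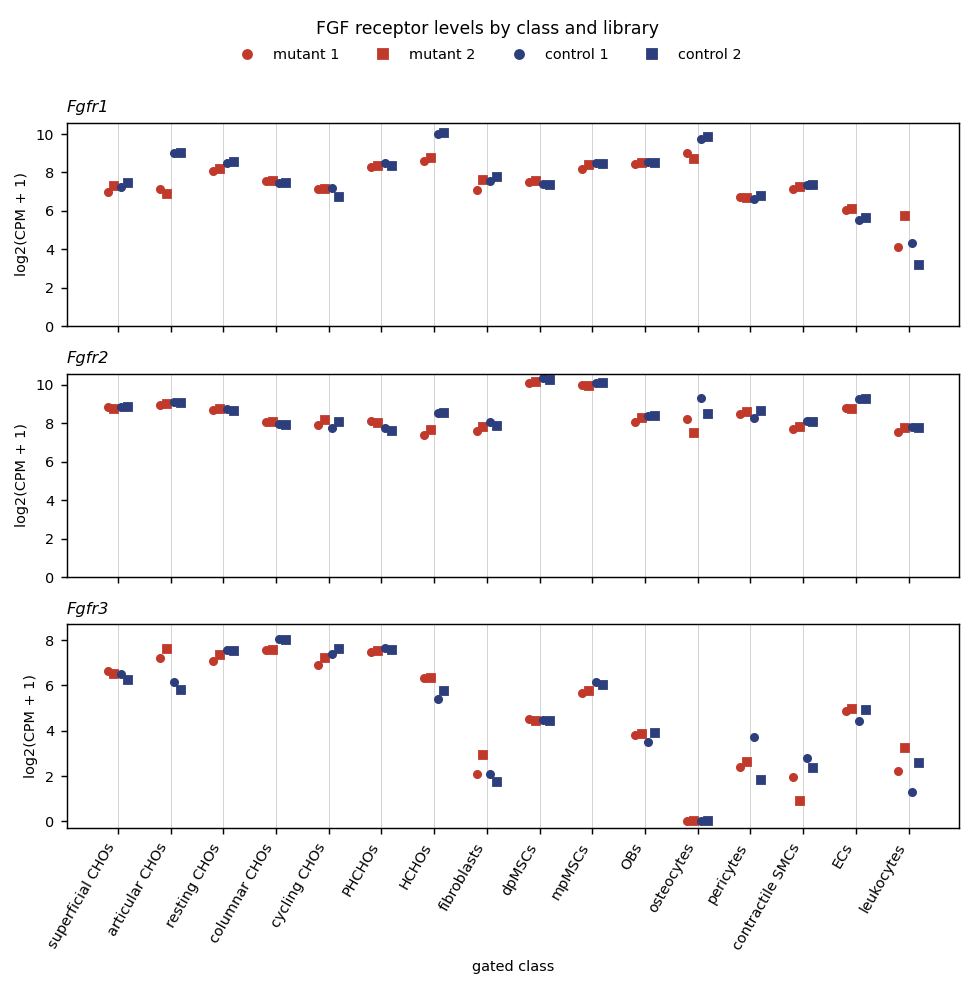
Levels of *Fgfr1*, *Fgfr2* and *Fgfr3* as log2(CPM + 1), 1 point per library, in each gated class. *Fgfr1* separates HCHOs and articular CHOs of controls (at or above 510 CPM) from those of mutants, *Fgfr2* stays at or above 167 CPM in every class, leukocytes included, and *Fgfr3* is high in columnar CHOs, PHCHOs and resting CHOs and at 0 in osteocytes.

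*Fgf1* was highest in contractile SMCs, at 293 ± 2.18 CPM, and next in pericytes, at 134 ± 26.3 CPM. Among other classes with over 100 counts it reached 53.4 ± 0.684 CPM in PHCHOs and 40.3 ± 4.51 CPM in superficial CHOs. *Fgf2* was highest in superficial CHOs, at 95.9 ± 9.62 CPM, followed by fibroblasts (52.7 ± 17.4 CPM) and articular CHOs (51.0 ± 8.84 CPM), which overlapped. *Fgf7* stood at 277 ± 1.03 CPM in dpMSCs and at 65.2 ± 6.85 CPM in mpMSCs. All other classes with over 13 counts of *Fgf7* lay at or below 14.2 CPM on average. *Fgf18* stood at 52.2 ± 1.96 CPM in superficial CHOs, at 26.9 ± 5.37 CPM in fibroblasts and at 9.98 ± 3.23 CPM in contractile SMCs, while columnar CHOs and PHCHOs of controls held 2 and 1 counts in all.

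**Figure D2:**
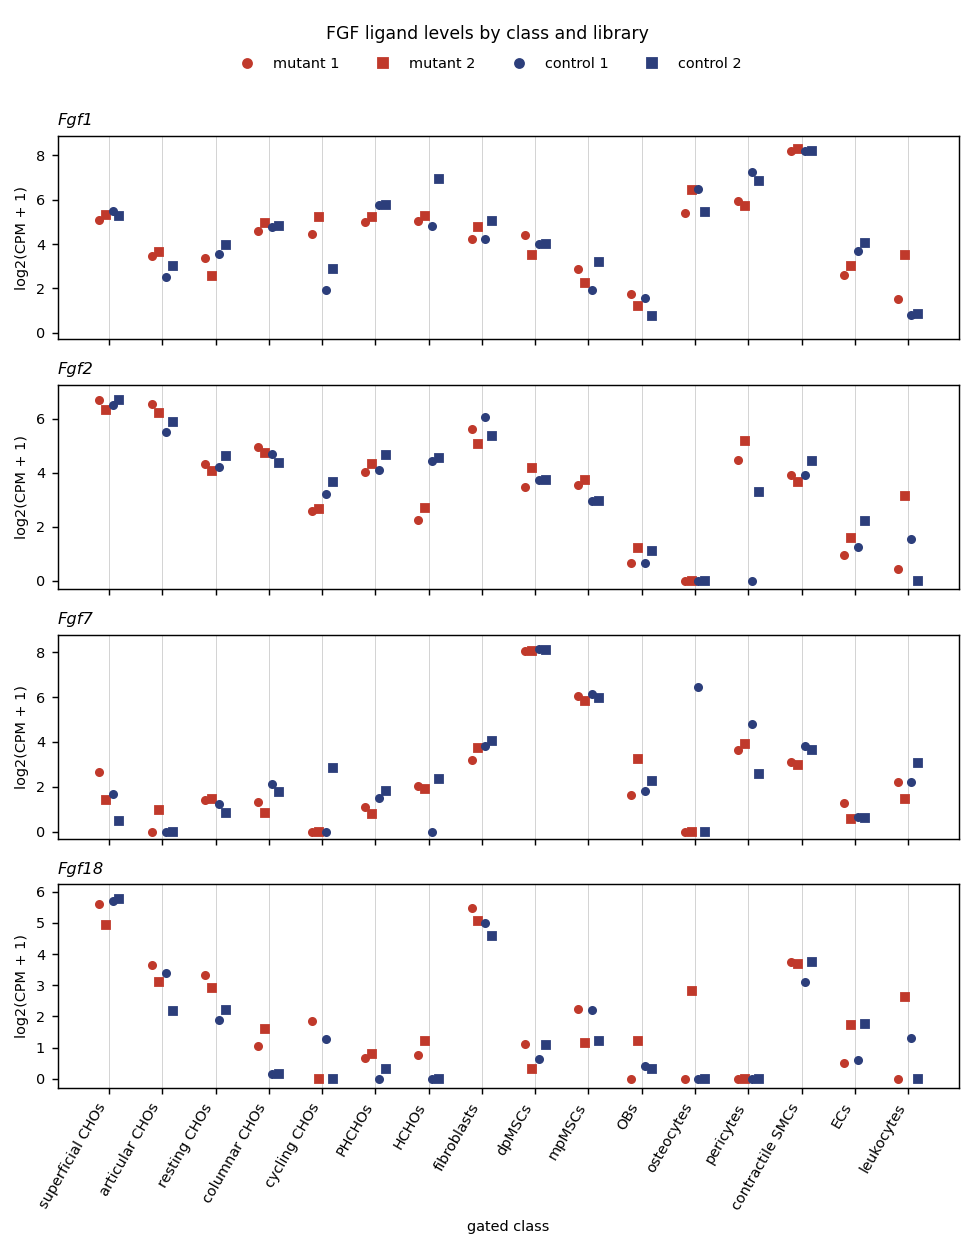
Levels of *Fgf1*, *Fgf2*, *Fgf7* and *Fgf18* as log2(CPM + 1), 1 point per library, in each gated class. *Fgf1* peaks in contractile SMCs, *Fgf2* and *Fgf18* in superficial CHOs and *Fgf7* in dpMSCs in all 4 libraries, except that *Fgf18* of mutant 2 was higher in fibroblasts (32.6 CPM) than in superficial CHOs (29.3 CPM).

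For mutants against controls, 79 of the 120 pairs of member and class passed the filter on low counts. Of these, 10 were called higher and 11 lower in mutants at an adjusted p of at most 0.05 (edgeR's quasi-likelihood test, Benjamini-Hochberg adjusted over all genes of the class). Over all genes and classes 7.55% of 162648 tests were called higher and 6.08% lower, 13.6% in either direction. The 42 tested pairs with a receptor held 7 higher and 7 lower calls, and the 37 with a ligand 3 and 4. The smallest p of an exact permutation test of 2 libraries against 2 is 0.333. Calls were found in 8 classes, and none in superficial CHOs (2.69% of all genes tested there were called), cycling CHOs (2.68%), mpMSCs (8.58%), contractile SMCs (8.57%), OBs (3.55%), fibroblasts (1.13%) and osteocytes (0.996%). The background share was 33.8% in ECs, the highest, and 3.24% in articular CHOs (1.68% higher and 1.56% lower).

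**Figure D3:**
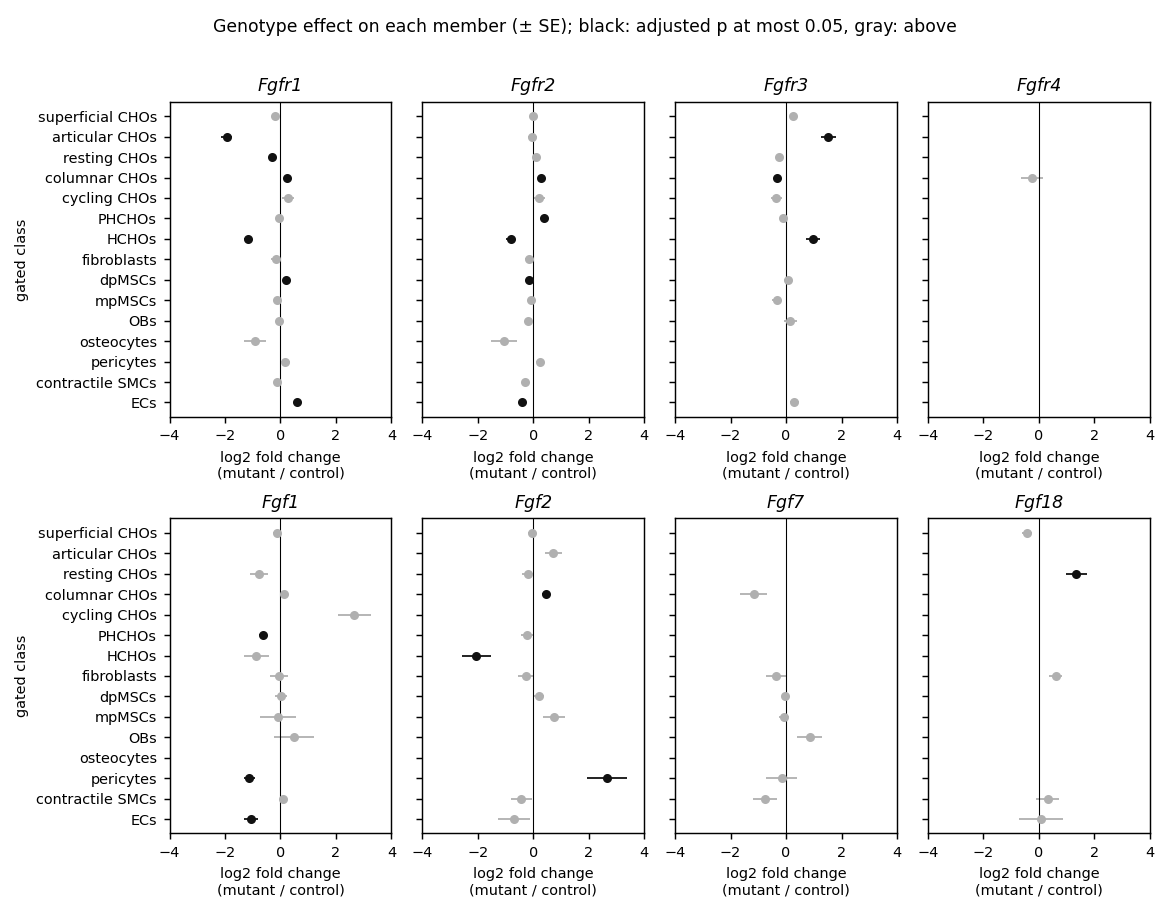
Log2 fold change of mutants over controls (± standard error) of each member in each class that passed the filter on low counts; black points have an adjusted p of at most 0.05. *Fgfr1* runs from −1.94 in articular CHOs to 0.60 in ECs, *Fgfr3* is higher in articular CHOs and HCHOs and lower in columnar CHOs, and *Fgf7* and *Fgfr4* have no black point.

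The largest receptor differences were those of the articular gate. *Fgfr1* stood at 142 and 117 CPM in the articular CHOs of mutants and at 523 and 510 CPM in those of controls, which is −1.94 on the log2 scale of mutants over controls (standard error 0.19, edgeR adjusted p = 1.57e-04). *Fgfr3* moved the other way, with 147 and 194 CPM against 70.7 and 55.5 CPM (1.53, standard error 0.28, edgeR adjusted p = 0.0074). It was detected in 76.5% of mutant and 29.0% of control cells, whose median depth was 11840 and 11467 against 7720 and 7450 UMIs. Neither pair of genotypes overlapped in CPM. Within cluster 0, led by *Msmp* and *Cytl1*, which held 57 and 84 of the mutant and 16 and 30 of the control cells, both differences remained, at −2.17 for *Fgfr1* (edgeR adjusted p = 7.07e-04) and 1.69 for *Fgfr3* (0.0096), where 4.56% of genes were called. In a joint fit the effect on *Fgfr1* differed from the mean of its effects in the other classes by −1.71 on the log2 scale, as the effect did for 0.659% of all genes (1.1% of those with counts in every class of both genotypes). The same difference for *Fgfr3* was 1.71 and could not be tested, since this gene was at 0 in osteocytes and the fit gave it no error. Both lost their call without mutant replicate 1 (edgeR adjusted p = 0.075 and 0.12). The 7 markers of all CHOs, of which at least 6 were detected, summed to 21210 and 26170 CPM in mutants and 8140 and 12910 CPM in controls of this gate, the 5 HCHO markers to 169 and 550 CPM against 47.1 and 69.4 CPM, and the 6 fibroblast markers to 314 and 222 CPM against 811 and 503 CPM. The part of these and of the unequal articular markers in the differences was not tested. *Etv5*, a target of the pathway, fell from 123 and 215 CPM in controls to 22.8 and 25.8 CPM in mutants, by 2.75 on the log2 scale (edgeR adjusted p = 3.90e-04). *Fgfr2* (log2 fold change −0.04) and *Fgf2* (0.73) were not called there.

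In the superficial CHOs next to them, *Fgfr1* was at 125 and 158 CPM in mutants and at 153 and 176 CPM in controls and was not called (−0.19, edgeR adjusted p = 0.47). Within cluster 0, superficial CHOs of mutants held 112 and 104 CPM of *Fgfr1* against 158 and 192 CPM (−0.67, edgeR adjusted p = 0.019, with 1.14% of genes called), while in cluster 20 the values were 134 and 193 CPM against 137 and 150 CPM (0.24, edgeR adjusted p = 0.55). *Fgf18* was at 47.7 and 29.3 CPM against 50.9 and 53.6 CPM in all superficial CHOs (−0.41, edgeR adjusted p = 0.26), and at 21.3 and 14.7 CPM against 39.6 and 36.2 CPM in those of cluster 20 (−1.03, edgeR adjusted p = 0.044, with 1.44% of genes called). In those of cluster 0, which held more *Fgf18*, the genotypes overlapped at 84 and 50.7 CPM against 72.1 and 80.7 CPM (−0.16, edgeR adjusted p = 0.84). *Fgfr3* stood at 99.8 and 89.3 CPM against 88.7 and 73.8 CPM and was not called (0.25, edgeR adjusted p = 0.29). With clusters named as a whole in place of the gates, *Fgfr1* was lower (−0.37, edgeR adjusted p = 0.014) and *Fgfr3* higher, at 88.8 and 96.5 CPM against 62.2 and 51.4 CPM (0.76, edgeR adjusted p = 9.8e-05), with 12.9% of genes called. These clusters held 953 gated superficial CHOs beside 189 articular CHOs, 277 fibroblasts, 316 CHOs of no zone and 565 barcodes of no class. The articular CHOs in cluster 0 numbered 57 and 84 in mutants and 16 and 30 in controls. The part of these other cells was not tested.

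In resting CHOs, where 8.5% of genes were called (4.88% higher and 3.62% lower), *Fgfr1* was slightly lower, at 273 and 292 CPM in mutants and 359 and 379 CPM in controls (−0.30, standard error 0.090, edgeR adjusted p = 0.046). *Fgf18* was higher, at 9.04 and 6.48 CPM against 2.67 and 3.61 CPM (1.35, standard error 0.39, edgeR adjusted p = 0.042), from 37, 29, 6 and 9 counts. The call of *Fgfr1* was lost without either mutant replicate or control replicate 2, and that of *Fgf18* without either mutant replicate or control replicate 1. Neither was called within a cluster, with *Fgfr1* at −0.28 in cluster 1 and −0.29 in cluster 2 (edgeR adjusted p = 0.18 and 0.27) and *Fgf18* at 1.35 in cluster 1 (0.14) and not tested in cluster 2. Over all cells of cluster 1, the cluster named resting CHOs, both were called, *Fgfr1* at 290 and 340 CPM against 469 and 464 CPM (−0.50, edgeR adjusted p = 0.0010) and *Fgf18* at 8.94 and 6.98 CPM against 2.7 and 3.15 CPM (1.48, edgeR adjusted p = 0.030), with 7.69% of genes called. In columnar and pre-hypertrophic CHOs *Fgf18* did not pass the filter, with 1.06 and 2.00 CPM against 0.125 and 0.116 CPM in the former. In the clusters named columnar CHOs, which hold more cells, it was called higher, at 3.28 and 3.49 CPM against 0.321 and 0.527 CPM (3.06, edgeR adjusted p = 6.4e-05, with 29.7% of genes called). In cluster 2, the larger of them, gated columnar CHOs were 191 and 216 of 426 and 468 cells in mutants. In controls they were 441 and 469 of 633 and 628 cells. The part of the other cells was not tested. *Fgfr3* of resting CHOs stood at 136 and 160 CPM in mutants and at 188 and 186 CPM in controls, without overlap, and was not called (−0.25, edgeR adjusted p = 0.16). It was not called in cluster 1 (−0.10, with 4.95% of genes called) or in cluster 2, at 122 and 177 CPM against 235 and 230 CPM (−0.51, edgeR adjusted p = 0.19, with 5.46% of genes called).

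Columnar CHOs and HCHOs carried 4 calls each, the most of any class. Of the 7 members tested in columnar CHOs, 4 were called, in a class where 25.1% of all genes were called (13.9% higher and 11.2% lower). *Fgfr3* fell to 190 and 191 CPM in mutants from 264 and 253 CPM in controls (−0.31, standard error 0.070, edgeR adjusted p = 0.0051). *Fgfr2* stood at 271 and 271 CPM against 249 and 243 CPM (0.27, standard error 0.068, edgeR adjusted p = 0.0097), *Fgfr1* at 187 and 190 CPM against 175 and 176 CPM (0.24, standard error 0.071, edgeR adjusted p = 0.025) and *Fgf2* at 29.8 and 25.5 CPM against 25.2 and 19.3 CPM (0.45, edgeR adjusted p = 0.039). The 3 higher calls depended on the scaling. TMM normalization moved the log2 fold changes of this class by 0.132, and with library totals in its place *Fgfr1* (0.10), *Fgfr2* (0.14) and *Fgf2* (0.32) were not called, whereas *Fgfr3* was. Within cluster 2, where 23.8% of genes were called, *Fgfr3* (−0.34, edgeR adjusted p = 0.0017) and *Fgfr2* (0.28, 0.0043) were called again. *Fgf1*, which was not called in the whole class, stood there at 11.3 and 13.0 CPM against 23.8 and 20.8 CPM (−0.75, edgeR adjusted p = 0.0044). It was also lower in the clusters named columnar CHOs (−0.81, edgeR adjusted p = 9.6e-05), where gated columnar CHOs made up a smaller part of the cells in mutants. In the smaller cluster 4 it was at 67.8 and 86.6 CPM against 46.4 and 57 CPM and was not called (0.65, edgeR adjusted p = 0.088, with 8.73% of genes called), nor were *Fgfr3* (−0.28) and *Fgfr2* (0.46). *Fgfr3* lost its call without control replicate 1 (edgeR adjusted p = 0.075) and *Fgfr1* and *Fgfr2* without either control replicate, while *Fgf2* lost it without mutant replicate 1 or control replicate 2.

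In PHCHOs, where 19.8% of genes were called (10.8% higher and 9.02% lower), *Fgfr2* stood at 274 and 256 CPM in mutants and 219 and 194 CPM in controls (0.40, standard error 0.087, edgeR adjusted p = 0.0084). These control values lay within the range of leukocytes, where the level of *Fgfr2* is uncertain. *Fgf1* fell to 30.6 and 35.8 CPM from 52.9 and 53.8 CPM (−0.65, standard error 0.12, edgeR adjusted p = 0.0030). Cluster 5 held 56 and 68 of the mutant PHCHOs and none of the controls, and cluster 4 156 and 149 against 216 and 213. *Fgfr3* and *Fgfr1* were not called. Within cluster 4 *Fgfr2* was called (0.29, edgeR adjusted p = 0.049, with 15.2% of genes called) and *Fgf1* was not (−0.37, edgeR adjusted p = 0.10), nor was it with named clusters in place of the gates (−0.06, edgeR adjusted p = 0.71). There *Fgfr1* was lower, at 272 and 264 CPM against 346 and 320 CPM (−0.22, edgeR adjusted p = 0.025, with 22.2% of genes called).

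HCHOs of both genotypes rested on different cells, since cluster 5 held 583 and 603 of the mutant and 1 and 2 of the control HCHOs. Over the whole gate, where 15.8% of genes were called (9.15% higher and 6.66% lower), *Fgfr1* stood at 385 and 428 CPM in mutants and 1017 and 1056 CPM in controls (−1.17, standard error 0.16, edgeR adjusted p = 5.18e-04). *Fgfr2* stood at 167 and 204 CPM against 367 and 372 CPM (−0.81, edgeR adjusted p = 0.0073). Its mutant values lay within or below the range of leukocytes, where its level is uncertain. *Fgf2* stood at 3.73 and 5.44 CPM against 20.5 and 22.2 CPM, the latter from 6 and 5.5 counts (−2.05, edgeR adjusted p = 0.023). *Fgfr3* was higher, at 80.5 and 79.8 CPM against 40.9 and 52.4 CPM, from 12 and 13 control counts (0.97, edgeR adjusted p = 0.024). In cluster 4, which held 19 and 20 mutant and 20 and 14 control HCHOs, none of the 3 receptors was called and *Fgf2* was not tested, while 2.49% of all genes were called, with *Fgfr1* at 602 and 647 CPM against 1112 and 994 CPM (−0.79, edgeR adjusted p = 0.17) and *Fgfr3* at 152 and 85.9 CPM against 46.3 and 22.0 CPM (1.71, edgeR adjusted p = 0.11). Over the whole gate the 5 osteocyte markers, of a class with a high *Fgfr1* level, summed to 77.3 and 105 CPM in mutants and 338 and 633 CPM in controls, and the 8 OB markers to 497 and 516 CPM against 1382 and 984 CPM, and their part was not tested. The call of *Fgfr1* held without each single library. *Fgfr2* lost it without either mutant replicate, *Fgfr3* without either mutant replicate or control replicate 1, and *Fgf2* without either control replicate.

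In ECs, the class in which Cre acts, *Fgfr1* was higher and *Fgfr2* and *Fgf1* lower in mutants, where 17.6% of all genes were called higher and 16.3% lower. *Fgfr1* stood at 65.7 and 68.9 CPM in mutants and 45.9 and 48.2 CPM in controls (0.60, standard error 0.080, edgeR adjusted p = 4.75e-04). Its transcript was found in 33.4% and 22.3% of cells, whose median depth was 6722 and 6594.5 against 5572 and 5085 UMIs. *Fgfr2* stood at 450 and 426 CPM against 626 and 613 CPM (−0.42, standard error 0.055, edgeR adjusted p = 4.36e-04), and *Fgf1* at 5.13 and 6.98 CPM against 11.7 and 15.7 CPM (−1.07, standard error 0.25, edgeR adjusted p = 0.0083). No pair of genotypes overlapped, and no call was lost when a library was left out. With clusters named as a whole in place of the gates *Fgf1* was not called (−0.39, edgeR adjusted p = 0.16). The 5 markers of pericytes, a class rich in *Fgf1*, were all detected and summed to 237 and 242 CPM in mutant ECs and 474 and 519 CPM in control ECs, and the 6 markers of contractile SMCs, also rich in it, to 401 and 346 CPM against 154 and 153 CPM. Of the 2 classes with the most *Fgfr2*, the 6 mpMSC markers summed to 185 and 191 CPM in mutant ECs and 378 and 378 CPM in control ECs. The 6 dpMSC markers went the other way, at 1364 and 1352 CPM against 1094 and 1138 CPM. The part of these markers in the differences of *Fgf1* and *Fgfr2* was not tested.

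The clusters within ECs took different shares of the gate. Cluster 8, led by *Apln*, held 112 and 168 mutant and 47 and 54 control cells, cluster 9, led by *Aplnr* and *Btnl9*, 42 and 45 against 249 and 217, and cluster 23, led by *Stab2*, 54 and 49 against 180 and 190. *Fgfr1* was higher in the mutant cells of cluster 8, at 88.2 and 94.6 CPM against 58.1 and 47.8 CPM (0.83, edgeR adjusted p = 0.044, with 11.3% of genes called). It was not called in cluster 21, led by *Vwf* (0.56, with 4.19% of genes called), cluster 23 (0.86, 8.04%) or cluster 9 (0.07, 4.68%), nor in cluster 10 with arterial genes, where its sign was the opposite (−0.06, 18%). *Fgfr2* was called in none of the 5 clusters, with log2 fold changes from −0.15 to 0.20. Clusters 9 and 23, which were larger in controls, held 623 to 874 CPM of *Fgfr2* in every library, and the other clusters 302 to 484 CPM. The lower *Fgfr2* of mutant ECs was thus called in the gate as a whole and in none of these clusters. *Fgf1* passed the filter only in cluster 9 of the 5, where it stood at 16.6 and 13 CPM against 22.1 and 19.6 CPM and was not called (−0.44, edgeR adjusted p = 0.57).

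**Figure D4:**
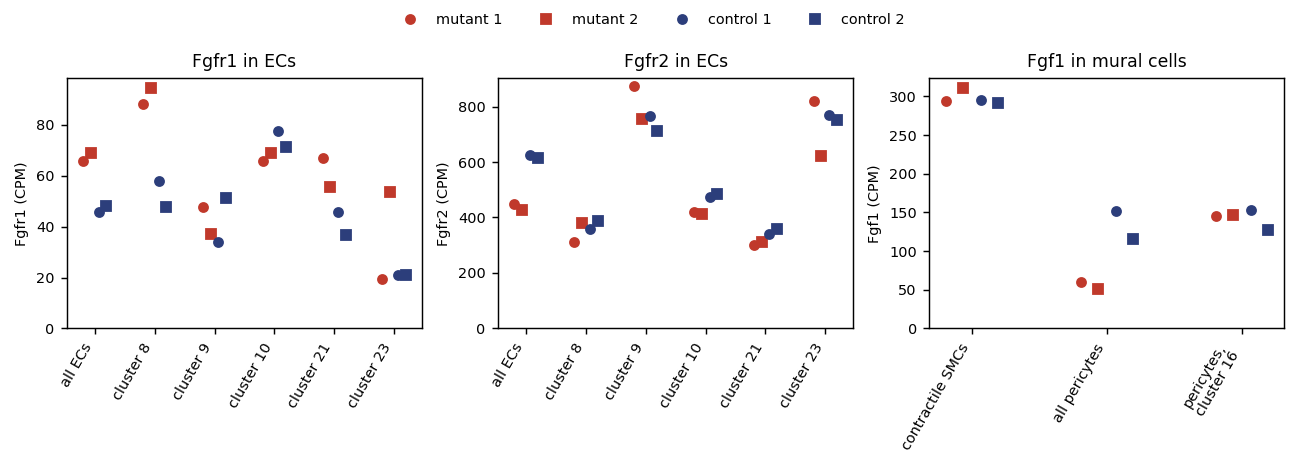
CPM per library of *Fgfr1* and *Fgfr2* in all ECs and in the 5 EC clusters that held cells of every library, and of *Fgf1* in contractile SMCs, in all pericytes and in the pericytes of cluster 16. *Fgfr2* separates the genotypes in all ECs but in cluster 9 lies at or above 712 CPM in all libraries, and *Fgf1* in pericytes of cluster 16 lies between 127 and 153 CPM in both genotypes.

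Among mural cells, *Fgf1* of contractile SMCs was at 294 and 311 CPM in mutants and 295 and 292 CPM in controls and was not called. *Fgfr2* was not called in these gated cells but was lower in the cluster named contractile SMCs, at 236 and 245 CPM against 296 and 344 CPM (−0.34, edgeR adjusted p = 0.034, with 12.5% of genes called). In pericytes, where 18% of genes were called (9.52% higher and 8.53% lower), *Fgf1* fell to 60.3 and 51.1 CPM from 152 and 115 CPM (−1.12, standard error 0.20, edgeR adjusted p = 0.0032). The 6 markers of contractile SMCs, the class with the most *Fgf1*, summed to 2045 and 1819 CPM in mutant and 2811 and 3046 CPM in control pericytes. Their part was not tested. Most mutant pericytes (143 and 183) lay in cluster 6, which held 1 and 4 control cells. In cluster 16, which held 63 and 49 mutant and 65 and 57 control pericytes, *Fgf1* was at 146 and 147 CPM against 153 and 127 CPM (0.12, edgeR adjusted p = 0.81, with 9.47% of genes called). *Fgf2* in pericytes was higher, at 21 and 35.5 CPM against 0 and 8.77 CPM, the latter from 0 and 3.5 counts (2.65, edgeR adjusted p = 0.030), and lost its call without control replicate 1 (1.67, edgeR adjusted p = 0.094).

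In BMSCs the differences were small. In dpMSCs, where 21.8% of genes were called (11.6% higher and 10.2% lower), *Fgfr1* stood at 183 and 185 CPM in mutants and 168 and 161 CPM in controls (0.20, standard error 0.060, edgeR adjusted p = 0.030) and *Fgfr2* at 1096 and 1140 CPM against 1310 and 1247 CPM (−0.16, standard error 0.048, edgeR adjusted p = 0.032). Cluster 7 held 77 and 95 of the mutant and 4 and 1 of the control dpMSCs. Within cluster 17, which held most dpMSCs of both genotypes, neither was called (0.03 and −0.11, with 20% of genes called). *Fgfr1* lost its call without mutant replicate 2 or either control replicate, and *Fgfr2* without either control replicate. *Fgf7*, the ligand that these cells hold most of, was at 262 and 264 CPM against 277 and 276 CPM (−0.03, standard error 0.055, edgeR adjusted p = 0.71), and at 65.0 and 55.4 CPM against 70.1 and 60.4 CPM in mpMSCs (−0.08, edgeR adjusted p = 0.86). In OBs *Fgfr1* was not called either, nor in osteocytes, at 509 and 414 CPM against 851 and 917 CPM (−0.91, standard error 0.39, edgeR adjusted p = 0.32), of which each library held 16 to 20 cells.

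Of the pathway genes around the members, the 13 feedback and target genes had 37 higher and 5 lower calls among 132 tests, beside 7.55% and 6.08% over all genes and classes. In columnar CHOs 9 of 11 tested genes were higher and none lower, with a median log2 fold change of 1.28 beside −0.01 over all genes tested, 13.9% of which were called higher. *Dusp5*, a phosphatase that acts on ERK, stood at 32.5 and 29.3 CPM in mutants and 10.6 and 11.1 CPM in controls of this zone (1.64, edgeR adjusted p = 1.30e-06). *Spry2*, a Sprouty inhibitor, rose from 4.79 and 4.63 CPM to 14.2 and 10.0 CPM (1.5). *Etv1* rose from 3.30 and 3.47 CPM to 10.6 and 17.9 CPM (2.22) and *Etv5* from 11.2 and 10.6 CPM to 17 and 19.8 CPM (0.89). Within cluster 2 of columnar CHOs 9 of 10 were higher (median 1.44, with 23.8% of genes called), and within cluster 4 1 of 4 (median 0.67, with 8.73%). Markers of some other zones rose with these genes in columnar CHOs. The 5 HCHO markers, all detected, summed to 301 and 838 CPM against 166 and 161 CPM. The 5 superficial markers, all detected, summed to 338 and 311 CPM against 82.3 and 94.9 CPM. PHCHO markers went the other way (956 and 929 against 1320 and 1343 CPM), as did resting markers (1133 and 1075 against 1223 and 1324 CPM). Articular and cycling markers overlapped between genotypes. *Dusp5* was also among the leading genes of cluster 5, which held most mutant HCHOs. The part of such cells in these calls was not tested. In PHCHOs 5 of 9 were higher (median 0.91, against 0.00 over all genes, 10.8% of which were called higher). Within cluster 4 of PHCHOs 5 of 8 were higher (median 1.25, with 15.2% of genes called). Within cluster 2 none of 3 was called, at a median of 1.17, with 1.87% of genes called. The 5 HCHO markers summed to 6314 and 4909 CPM in mutant and 11250 and 10480 CPM in control PHCHOs. The 6 fibroblast markers stood at 40.0 and 69.0 against 15.7 and 17.7 CPM and the 6 mpMSC markers at 259 and 366 against 153 and 117 CPM. Their part in the calls in PHCHOs was not tested. The other zones held few such calls. In HCHOs *Spry2* and *Dusp5* were higher and *Etv5* lower among 10 genes tested (median −0.10). Over all genes there the median was 0.11, with 9.15% called higher and 6.66% lower. None was called among 8 in resting CHOs (8.5% of all genes called), 9 in superficial CHOs (2.69%) and 2 in cycling CHOs (2.68%). Within cluster 2 of resting CHOs 1 of 6 was higher (5.46% of genes called), and within cluster 1 0 of 7 (4.95%).

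Classes other than chondrocytes held 21 of the 37 higher calls, and none was called in OBs, fibroblasts or osteocytes. In mpMSCs 6 of 11 were higher (5.26% of all genes were called higher), among them *Dusp6* at 43.8 and 36.9 CPM against 11.9 and 13.6 CPM (1.69, edgeR adjusted p = 2.50e-04), but within cluster 24, where 1.51% of genes were called, *Dusp5* alone of 10 was. Cluster 7, led by *Mmp9* and *Mmp13*, held 36 and 35 of the 94 and 109 mpMSCs of mutants and 8 and 3 of the 395 and 396 of controls, and the 6 mpMSC markers, all detected, summed to 4401 and 4957 CPM against 7229 and 6810 CPM. Their part in these calls was not tested. In pericytes 5 of 12 were higher (9.52% of all genes), and 1 of 7 within cluster 16. The median log2 fold change was 0.69 over these 7 and 0.71 over the 12 of the whole gate, which are different sets of genes. *Dusp5* and *Etv4* were at 0 in both control libraries of pericytes and held 18 and 30, and 21 and 31, counts in mutants. In contractile SMCs 3 of 10 were higher (5.10% of all genes), namely *Spry2* (1.59), *Spry4* (1.64) and *Dusp5* (2.52), which were also higher within cluster 16 (7.51% of genes called). In dpMSCs 4 of 13 were higher (11.6% of all genes) and *Spred1* lower. Within cluster 17 of dpMSCs 4 of 12 were higher and 1 lower (20% of genes called), and within cluster 24 0 of 4 (0.182%). In ECs 3 were higher (17.6% of all genes) and 2 lower (16.3%). There *Dusp5* rose from 8.91 and 13.1 CPM to 19.5 and 26.3 CPM (1.15) and *Spred1* fell from 161 and 156 CPM to 92.6 and 91.6 CPM (−0.70), as did *Etv1* (−1.62). Within cluster 10 of ECs 2 of 10 were higher and 2 lower (18% of genes called), and within cluster 21 1 of 8 was higher (4.19%). Cluster 23 held 1 lower call among 10 (8.04%), cluster 8 held 1 among 8 (11.3%), and cluster 9 held none among 10 (4.68%). *Dusp5* was higher in 8 classes, the most of this list. Requiring a count in 20% of the cells of either genotype left 14 of the 37 higher calls.

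**Figure D5:**
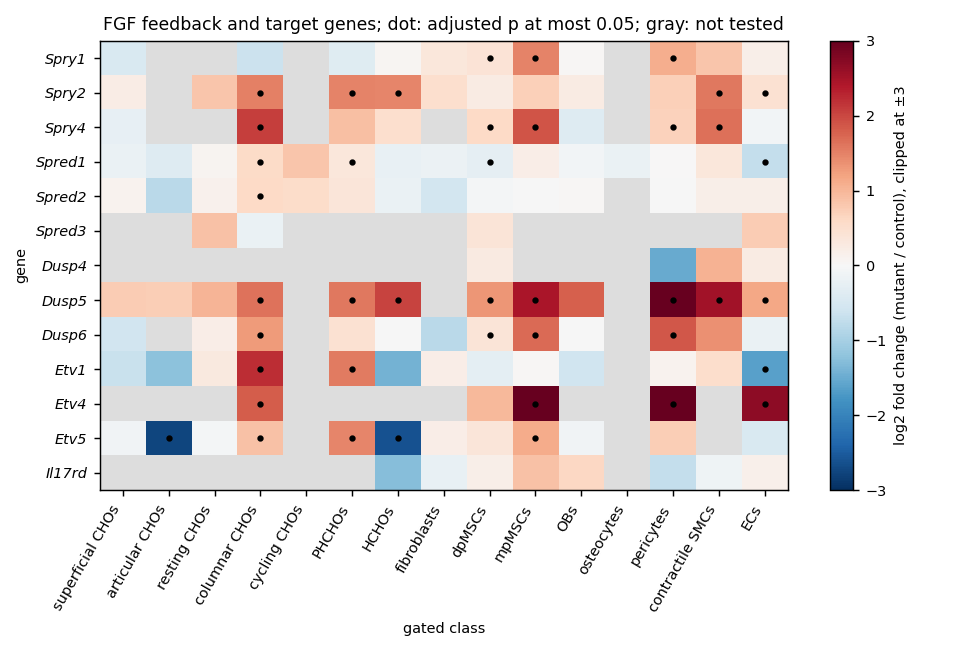
Log2 fold change of mutants over controls of the 13 feedback and target genes (rows) in the 15 classes (columns), clipped at ±3; dots mark an adjusted p of at most 0.05 and gray cells were not tested. Columnar CHOs hold 9 dots, all red, the articular CHOs 1 blue dot for *Etv5*, and *Dusp5* has dots in 8 classes.

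Among the co-receptors, heparan sulfate proteoglycans and enzymes that shape heparan sulfate, 23 of 165 tests were called higher and 19 lower, beside the 7.55% and 6.08% of all tests. *Sdc4*, a syndecan, was higher in 9 classes, for example at 1389.5 and 1303 CPM against 1068 and 1056 CPM in columnar CHOs (0.48) and at 31.0 and 33.4 CPM against 11.0 and 16.1 CPM in ECs (1.34). *Sdc3* was higher in HCHOs (1.21) and dpMSCs (0.84) and lower in ECs (−0.50), resting CHOs, columnar CHOs and PHCHOs. *Sulf1*, which removes sulfate groups from heparan sulfate, was higher in ECs, at 157 and 183 CPM against 70.8 and 67.7 CPM (1.38, edgeR adjusted p = 8.63e-06), and lower in dpMSCs, at 200 and 192 CPM against 388 and 365 CPM (−0.91, edgeR adjusted p = 3.15e-07), and in resting CHOs, HCHOs and pericytes. *Gpc1*, a glypican, was lower in columnar CHOs (−0.74) and HCHOs (−1.35) and higher in dpMSCs (0.88). *Fgfbp3*, which binds FGFs, was higher in 4 classes, at most 14.3 CPM.

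The 10 adaptors and signal carriers had 4 higher and 9 lower calls among 134 tests, beside the 13.6% called in either direction over all tests. *Gab1*, a docking protein, was lower in dpMSCs, at 130 and 136 CPM against 214 and 208 CPM (−0.63, edgeR adjusted p = 8.79e-06), and in PHCHOs, HCHOs and pericytes, and higher in columnar CHOs (0.25). *Frs2*, the adaptor bound by FGF receptors, was lower in ECs, at 51.6 and 50 CPM against 76.9 and 73.7 CPM (−0.49, edgeR adjusted p = 0.0011), and in dpMSCs and resting CHOs. *Plcg1* (−0.59) and *Ptpn11* (−0.23) were also lower in ECs.

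The genes listed as effectors of FGFR3 in chondrocytes had 13 higher and 4 lower calls among 41 tests, beside 7.55% and 6.08% of all tests. *Cdkn1a*, an inhibitor of the cell cycle, was higher in 9 classes, among them dpMSCs, mpMSCs, contractile SMCs and ECs. In columnar CHOs it stood at 148 and 135 CPM against 43.3 and 56.5 CPM (1.63, edgeR adjusted p = 1.43e-07) and in HCHOs at 901 and 816 CPM against 276 and 161 CPM (2.14). *Snai1* was higher in dpMSCs (1.27), mpMSCs (1.82), contractile SMCs (1.24) and ECs (0.31) and was called in no zone of CHOs.

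The 18 other FGF ligands passed the filter in 29 tests, with 6 higher and 3 lower calls, of which 3 higher ones fell in ECs, where 17.6% of all genes were called higher. *Fgf23*, a hormone of phosphate balance made mainly by osteocytes, was higher in ECs, at 33.0 and 36.2 CPM against 6.17 and 20.6 CPM (1.47, edgeR adjusted p = 0.012). In dpMSCs its libraries overlapped, at 12.5 and 1.25 CPM against 1.88 and 1.01 CPM (2.18, edgeR adjusted p = 0.031). *Fgf9* and *Fgf12* in ECs and *Fgf11* in columnar CHOs were higher at or below 6.26 CPM. *Fgf13*, an intracellular homologue, was lower in HCHOs and pericytes, and *Fgf14* was lower in mpMSCs, at 21.3 and 35.7 CPM against 83.0 and 64.4 CPM (−1.33), and higher in dpMSCs (0.92).

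Over the 60 sums of class and library, the genes whose log2(CPM + 1) ran most like a receptor were compared among 11758 genes. For *Fgfr3* they were *Npas3* (Pearson r = 0.902), *Slc26a2* (0.883), a sulfate transporter of cartilage, *Efcab1*, *Tenm3* and *Acsf2*. For *Fgfr1* they were *Galnt3* (0.808), *Ust*, *Cadm1*, *Fam20c* and *Srgap3*, and for *Fgfr2* *Rai14* (0.814), *Dclk2*, *Ghr*, *Hmgcll1* and *Tmem176b*. None was a marker of the gates. The sums of a library share its preparation and those of a class its cells, so these values are descriptions. *Fgfr1* and *Fgfr2* did not run together over these sums (r = −0.04), nor did *Fgfr1* and *Fgfr3* (r = −0.06).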

How the data were processed

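The authors trimmed reads with cutadapt 3.5 and aligned them with STARsolo 2.7.10a to GRCm39, adding CreERT2 and reporter sequences to the GENCODE genes. UMIs of exons and introns were counted, and the authors deposited expected counts for all barcodes, which are not whole where reads of several genes were shared out. The libraries hold 69636600 and 78953446 (mutants) and 83453507 and 85899079 UMIs (controls).

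From these, barcodes with at most 15% mitochondrial and 5% hemoglobin transcripts and a complexity of at least 0.8 were kept. They were gated by the best of the marker scores (at least 0.25, margin 0.1, and for zones 0.2 and 0.05) with scanpy 1.11.5 on Python 3.11.15. The score limits were set after the barcodes were seen and before the genotypes were compared. Between 648 and 1000 barcodes per library took no class, and cells of no zone were left out. Doublets were scored against simulated pairs, and the highest scores were marked up to a number set by an assumed rate (0.8% per 1000 barcodes). These 210 to 371 barcodes per library were kept in the main sums and left out in an alternative. Clusters came from 4000 variable genes, 50 components, 15 neighbours and a Leiden resolution of 1.

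Expected counts were summed per class and library, rounded, filtered with filterByExpr and tested in each class with edgeR 4.0.16 (R 4.3.3, quasi-likelihood test, TMM normalization, Benjamini-Hochberg adjustment over all genes of the class). The standard error is the log2 fold change divided by the square root of F. The scripts were tested on simulated data. The precision of a level falls with its counts, and the limit given by a count of 0 covers counting error only. DESeq2 1.42.0, the tool of the study, other filters, gates and scalings, a replicate block and each library left out were alternatives. Differences between classes came from 1 joint edgeR fit.

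The members, lists and tests were chosen with earlier results of these data known. Named are all members, from each list the genes called in the most classes (at most 8 genes per list), the 5 genes most like each of 3 receptors, and *Lats2*; clusters and partners of shared reads were chosen after seeing their values. Positions follow GENCODE M39. 1 gene of the lists is not reported here.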

Additional observations from a re-analysis of the deposited data

Results flagged for a closer look

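The genotype effect of a member in 1 class was set against the mean of its effects in the other classes, in 1 fit of all classes with 16843 genes. *Fgfr3*, *Fgf2*, *Fgf7* and *Fgf18* were at 0 in both libraries of a genotype in at least 1 class, osteocytes among them, and had no usable error in this fit, so that they could not be called, and *Fgfr4* was not in it. Of the differences of *Fgfr1*, *Fgfr2* and *Fgf1*, 11 passed an adjusted p of 0.05 (edgeR's quasi-likelihood test, Benjamini-Hochberg adjusted), and each is given as a difference of log2 fold changes. For *Fgfr1* the effect was lower in articular CHOs (−1.71) and HCHOs (−0.91) than in the other classes and higher in ECs (0.84), columnar CHOs (0.46) and dpMSCs (0.41). For *Fgfr2* it was lower in HCHOs (−0.63) and ECs (−0.35) and higher in pericytes (0.53), PHCHOs (0.53) and columnar CHOs (0.39). *Fgfr2* of pericytes was not called on its own, and its libraries overlapped (356 to 393 CPM in mutants, 309 to 398 CPM in controls). The mean weighted all other classes equally, HCHOs and osteocytes included, so a difference can exceed the effect in its own class. That effect on *Fgfr1* was 0.60 in ECs, 0.24 in columnar CHOs and 0.20 in dpMSCs. For *Fgf1* it was lower in ECs (−1.16). Of all genes, 0.659% differed in this way in articular CHOs, 1.25% in dpMSCs, 2.04% in PHCHOs, 2.55% in columnar CHOs, 4.71% in pericytes, 5.67% in ECs and 8.88% in HCHOs. These shares include 7791 genes at 0 in some class of a genotype, and among the other 9052 they were 1.1%, 2.05%, 3.37%, 4.04%, 7.99%, 9.21% and 15.5% in the same order. The gates of HCHOs, pericytes, ECs, PHCHOs, dpMSCs, columnar CHOs and articular CHOs took different shares from their clusters in the 2 genotypes, and the part of this in the differences was not tested.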

How the results depend on the processing

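Of the 21 member calls, 13 of 20 tested were kept with DESeq2, 21 of 21 with RLE size factors, 19 without the filter on low counts, 17 of 17 with a count in 20% of cells, 19 without doublets, 17 with only the limits of 1000 UMIs and 800 genes, 8 of 13 in Leiden clusters (which gave no value for the calls in HCHOs, pericytes and articular CHOs) and 11 of 19 in clusters shared by all libraries, an alternative added after seeing the data. DESeq2 did not call *Fgf2* and *Fgfr1* in columnar CHOs, *Fgf2* in pericytes, *Fgfr1* in dpMSCs and resting CHOs, *Fgfr2* in dpMSCs or *Fgfr3* in HCHOs. A wider margin of the gate tested 19 calls and ended 4 of them, all in dpMSCs or resting CHOs. It did not test those of *Fgfr1* and *Fgfr3* in articular CHOs. In the articular gate 24 of 64 and 36 of 89 mutant cells and 14 of 25 and 19 of 37 control cells scored within 0.05 of a cut. The 10 higher calls became 4 with DESeq2, 3 with a limit of 1 on the log2 fold change, 6 in shared clusters, 4 with library totals without TMM (added likewise) and 4 to 8 with single libraries left out, newly called pairs included (4 to 6 of the 10 were kept). The 11 lower calls became 5 under that fold limit and 5 in shared clusters, and 8 to 10 with libraries left out, counted likewise (7 to 8 of the 11 were kept). The 37 higher calls of feedback genes became 22 with DESeq2 and 14 with a count in 20% of cells, and the 5 lower ones 3 with a wider margin of the gate, 8 in Leiden clusters, 3 under the fold limit, 8 with library totals and 3 to 6 with libraries left out. The 22166 calls over all genes and classes became 10978 with DESeq2 and 8074 under the fold limit. The sign turned for *Fgfr1* in ECs of cluster 10 (−0.0562), *Fgfr2* in ECs of clusters 23 (0.00935) and 9 (0.20), *Fgfr2* in dpMSCs of cluster 24 (0.0526) and *Fgf1* in pericytes of cluster 16 (0.12), the same as in shared clusters. The causes were not tested.

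With the replicate block 11 members were higher and 10 lower, feedback genes gave 39 higher and 6 lower calls, and all genes 23799. *Fgfr2* in dpMSCs lost its call. Replicate numbers were not shown to pair the libraries, since deviations of libraries with the same number correlated between −0.06 and 0.13.

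HCHOs, pericytes, articular CHOs, osteocytes and cycling CHOs held under 100 cells in each control library, and their low genes rest on few counts.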

Other observations

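Among the clusters that took no class name, cluster 7, led by *Mmp9*, *Col25a1* and *Mmp13*, held 356 and 405 cells in the mutant libraries and 34 and 38 in the controls. Its *Fgfr2* level was 704 and 874 CPM in mutants and 730 and 691 CPM in controls, and its *Fgfr1* level 303 and 306 CPM against 249 and 254 CPM, neither of which was called. *Fgf7* stood there at 130 and 129 CPM against 100 and 33.6 CPM (log2 fold change 1.06, standard error 0.28, edgeR adjusted p = 0.019, with 6.37% of genes called), whereas it was called in none of the gated classes. Of the cells of cluster 7, 77 and 95 in mutants and 4 and 1 in controls were gated as dpMSCs, the class with the most *Fgf7*. Their part in this difference was not tested. Where clusters were named as a whole, *Fgf7* was lower in ECs, at 2.09 and 2.10 CPM against 6.66 and 7.495 CPM (−1.65, edgeR adjusted p = 0.0011, with 37.1% of genes called), and in contractile SMCs, at 4.59 and 5.37 CPM against 17.9 and 22 CPM (−1.92, edgeR adjusted p = 0.0019, with 12.5% of genes called). In the gated ECs it was at 1.44 and 0.487 CPM against 0.571 and 0.548 CPM, from 3 to 7 counts a library, and in gated contractile SMCs at 7.68 and 6.79 CPM against 13.2 and 11.4 CPM, not called. The EC clusters also held 40 cells gated as dpMSCs, a class rich in *Fgf7*, with 1 and 3 against 13 and 4 of them in cluster 10 and 2 and 1 against 7 and 8 in cluster 23, and cluster 16 of contractile SMCs held none in mutants against 3 and 7 in controls. Their part in these values was not tested. In cluster 18, led by *Mepe*, with 102 and 113 mutant and 8 and 14 control cells, *Fgfr1* stood at 174 and 173 CPM against 250 and 740 CPM, and the class was too small in 1 control library for a test.

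Cycling CHOs held 21.1 and 36.2 CPM of *Fgf1* in mutants and 2.82 and 6.24 CPM in controls, which did not pass the threshold (log2 fold change 2.67, standard error 0.60, edgeR adjusted p = 0.051). With only the whole part of each entry it did pass (2.67, edgeR adjusted p = 0.049).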
